A study of Mus musculus with 68 samples.

Results

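C1qb encodes the B chain of C1q, the complement subunit that starts the classical complement cascade, and 22 of the 68 single-neuron libraries of this study held at least 10 counts of it. These 22 cells, called C1qb cells here, were set against the 45 cells with a C1qb count of 0. The remaining cell, WT cell 60, had a C1qb count of 2 and was left out of the split. The lowest count inside the rule was 17, in 3xTg cell 79. Both sets were thus chosen by their measured C1qb count, and every difference between them is a description, with no test. Of the C1qb cells, 10 were among the 33 3xTg cells and 12 among the 35 WT cells, and the cells at 0 were 23 and 22.

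The libraries were made by Patch-seq, in which the contents of a patch-clamped dopamine (DA) neuron of the ventral tegmental area (VTA) are drawn into the recording pipette and sequenced. The mice were 12 months old, of both sexes, and were either 3xTg mice, homozygous for mutant transgenes that include human APP Swe and tau P301L, or transgene-free WT mice, which were bred apart from them and share their mixed strain origin. Per the study's methods, retained cells had the DA neuron transcripts Th, Slc6a3 and Slc18a2 and lacked Pvalb, Tmem119, P2ry12 and Aldh1l1. Each sample is 1 cell and the labels name no mouse, so cells were not taken as replicates of a genotype, and no p-value is given.

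Microglia are the resident macrophages of the brain and survey the tissue with motile processes that contact neuronal somata. They are the main source of C1q in the brain, where C1q tags synapses and debris for removal through complement receptors. On injury or stimulation they release chemokines of the Ccl family and cytokines such as interleukin 1 and tumour necrosis factor. In a library from a single pipette, transcripts of the patched neuron and of any other cell cannot be told apart.

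C1qb lies on chromosome 4 of mm10 between 136880145 and 136886177, beside C1qc (136889802 to 136892914) and C1qa (136895916 to 136898844), which encode the other chains of C1q. The windows around the start sites of C1qb and C1qc are shown because they encode chains of the same protein. The windows of Ctss, the lysosomal protease cathepsin S of microglia, and of Tnf, the cytokine tumour necrosis factor, are also shown. These genes were among those higher in the C1qb cells, and their windows hold the letters marked below. Each window is 300 bases of the RefSeq promoter table (GRCm38.p6), from 250 bases before to 50 bases after the start site, on the strand of the gene. Capitals mark the letters AGGAAGT or, on the opposite strand, ACTTCCT, the core of a site bound by PU.1, the ETS factor on which the macrophage lineage depends. The windows are chr4:136886151-136886450 (minus strand), chr4:136892865-136893164 (minus), chr3:95526536-95526835 (plus) and chr17:35201958-35202257 (minus).
C1qb: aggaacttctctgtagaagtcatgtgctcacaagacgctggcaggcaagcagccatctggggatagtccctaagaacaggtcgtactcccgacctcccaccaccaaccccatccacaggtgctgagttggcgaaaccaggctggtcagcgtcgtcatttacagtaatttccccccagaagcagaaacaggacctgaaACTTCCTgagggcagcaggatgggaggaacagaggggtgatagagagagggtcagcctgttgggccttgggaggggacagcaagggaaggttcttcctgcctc
C1qc: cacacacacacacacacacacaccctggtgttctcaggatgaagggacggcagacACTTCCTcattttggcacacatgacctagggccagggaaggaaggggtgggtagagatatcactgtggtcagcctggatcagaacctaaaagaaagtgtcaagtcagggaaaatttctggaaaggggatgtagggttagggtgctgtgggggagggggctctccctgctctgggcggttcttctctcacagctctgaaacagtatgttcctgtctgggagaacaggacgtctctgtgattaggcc
Ctss: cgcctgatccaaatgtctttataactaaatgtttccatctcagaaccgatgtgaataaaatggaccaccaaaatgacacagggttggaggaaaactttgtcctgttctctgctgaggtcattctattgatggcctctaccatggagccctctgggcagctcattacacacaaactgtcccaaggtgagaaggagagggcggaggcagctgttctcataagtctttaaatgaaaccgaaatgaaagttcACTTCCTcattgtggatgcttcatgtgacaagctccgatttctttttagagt
Tnf: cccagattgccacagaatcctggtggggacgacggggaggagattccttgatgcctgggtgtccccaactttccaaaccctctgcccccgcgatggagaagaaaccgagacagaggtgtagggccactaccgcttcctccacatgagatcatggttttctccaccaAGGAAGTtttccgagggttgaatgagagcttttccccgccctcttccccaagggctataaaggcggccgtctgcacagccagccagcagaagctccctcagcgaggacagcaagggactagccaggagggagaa
The matches begin at position -53 of C1qb, -195 of C1qc, -2 of Ctss and -84 of Tnf, counted from the start site, and the letters were chosen after these windows were read. Over all 32851 windows of the table, 9.35% held the letters on either strand. Of the 36 windows of genes on the microglia list, 11 held them (30.6%), and of the 14 windows of the cytokine and chemokine list, which holds Tnf, 2 did (14.3%). Of 24 windows of dopaminergic genes 2 held them (8.33%). The windows of Ccl3 and Il1a, genes also higher in the C1qb cells, did not hold these letters and are not shown. Every window shown thus holds a match. A match is a run of letters and no evidence that a factor binds there.

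C1qb counts in the C1qb cells ran from 17 through a median of 114 to 2371 and were not evenly spread between genotypes. The 9 cells with 500 counts or more were 8 WT cells and 3xTg cell 43, which held 2048 counts. Among WT C1qb cells the counts were 36 at the lowest, 841 at the median and 2371 at the highest. Among 3xTg C1qb cells they were 17, 66.5 and 2048, so the ranges overlapped widely while the medians lay far apart. The share of cells with C1qb was 30.3% in 3xTg (10 of 33 cells) and 34.3% in WT (12 of 35). These shares describe the cells at hand and say nothing of the spread between mice.

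Many of the C1qb cells lay beside each other by label, though no value for a random order of labels was computed. All 6 WT cells labelled 6 to 11 were C1qb cells, and 15 of the 22 had a C1qb cell at a neighbouring label number. Of the 48 pairs of cells with consecutive labels, 11 had C1qb in both, 15 in one and 22 in neither. The label number and the number in the column header relate to each other in all 68 cells as row-wise and column-wise numbering of a plate of 8 rows and 12 columns. What the numbers stand for is not given in the sources used here, and whether neighbouring labels share a mouse, a slice, a day or a plate position was not tested. Without WT cells 6 to 11 the WT share was 20.7%, and 3 WT cells had 500 C1qb counts or more. The median count of the remaining WT C1qb cells was 310, so much of the genotype difference in C1qb counts lay in this run of labels.

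**Figure D1:**
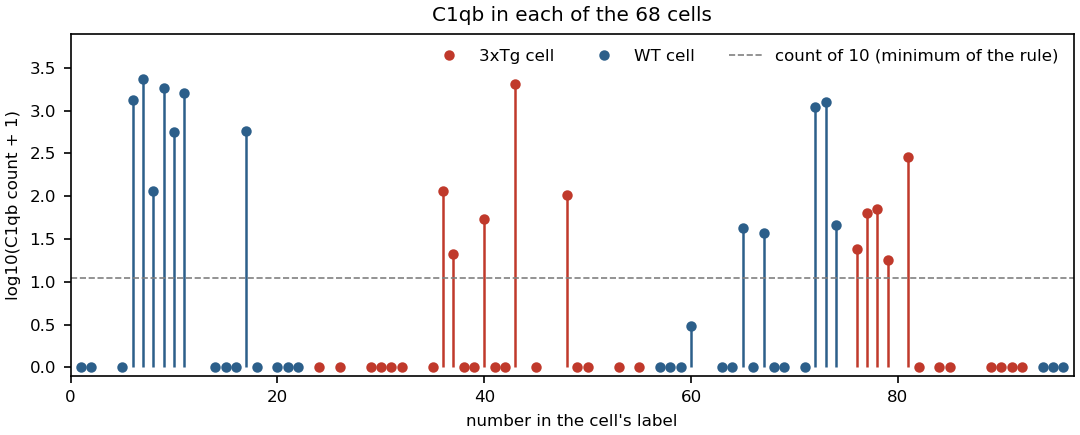
C1qb in every cell, as log10(count + 1) on the vertical axis, against the number in the cell's label, with 3xTg cells in red, WT cells in blue and the minimum of the rule dashed. The 6 WT cells labelled 6 to 11 all carry C1qb, and the highest counts are in WT cells and 3xTg cell 43.

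C1qa and C1qc did not always come with C1qb. C1qa had at least 10 counts in 12 of the 22 C1qb cells, with a median of 37 and a highest count of 448 in WT cell 73. It reached 10 counts in 3 of the 45 cells at 0, where the highest count was 41. C1qc reached 10 counts in 8 C1qb cells, and 72.1% of its summed counts came from 3xTg cell 43 alone. Both other chains had a count in 8 C1qb cells, at least one of them in 16, and at least one in 9 of the cells at 0. WT cell 9 and WT cell 6 held 1852 and 1326 counts of C1qb with none of C1qa or C1qc.

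To put all genes on one scale, a difference was computed per gene as the mean of log2(normalised count + 1) over the C1qb cells minus that over the cells at 0, for the 15260 genes with a count in at least 3 cells. A gene was called higher at a difference of 1 or more and lower at -1 or less. By this rule 425 genes were higher (2.79%) and 858 lower (5.62%) in the C1qb cells, and the median gene differed by -0.06. The balance of higher and lower calls turned without WT cells 6 to 11 (922 and 499) and in 3xTg cells alone (2216 and 550). A second rule called a gene where the share of cells with at least 10 counts differed by 30 percentage points, which gave 43 genes higher (0.282%) and 47 lower (0.308%). Since C1qb chose the cells, these shares are the background against which each list is read.

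Microglial genes came with C1qb. Of the 39 genes on the microglia list besides C1qb, 32 had a count in at least 3 cells, and 15 of these were higher, none lower and 17 between, against the background of 2.79% higher. The share rule called 9 of them higher, against 0.282% of all genes. The list's median difference was 0.93, 0.59 over all of its genes without a filter and 0.62 without WT cells 6 to 11. The summed level of the list was 252 counts per 1000000 counts of the library (CPM) in the lowest C1qb cell, 806 at the median and 15970 in the highest. In the cells at 0 it was 2.16, 182 and 2156 CPM, so the sets overlapped, with 7 C1qb cells above every cell at 0. A C1qb cell held from 2 to 19 of these genes at 10 counts or more (median 9), and a cell at 0 from 0 to 11 (median 3).

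Ctss, the cathepsin of microglial lysosomes, had 0 counts in the lowest C1qb cell, 132 at the median and 3144 in the highest, WT cell 7. In the cells at 0 its median was 0 and its highest count 168. It reached 10 counts in 17 of 22 C1qb cells and in 6 of 45 cells at 0, a difference of 5.67 (SD over cells 4.05 and 2.01). Tyrobp, the DAP12 adaptor of microglial receptors, reached 10 counts in 19 C1qb cells and 8 cells at 0, with highest counts of 989 and 176. Its difference was 5.09, and that of Aif1, the actin-binding protein IBA1 used to stain microglia, was 3.51. Fcer1g, an adaptor chain of Fc receptors, differed by 3.09, with medians of 24 and 0. For each of these genes the sets overlapped, because some C1qb cells held none and some cells at 0 held 10 counts or more.

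Further receptors and lysosomal genes of microglia were present in fewer cells. Trem2, the lipid-sensing receptor that signals through Tyrobp, had 10 counts or more in 9 C1qb cells and 4 cells at 0 (difference 2.47), and Cd68, a lysosomal membrane protein, in 10 and 4 (2.79). Cd14, a coreceptor for bacterial lipopolysaccharide, reached 3974 counts in a C1qb cell and 219 in a cell at 0. Laptm5, a lysosomal protein of blood-lineage cells, had 10 counts in 5 C1qb cells and in 0 of the 45 others, where its highest count was 1. Csf1r, the receptor that keeps microglia alive, reached 10 counts in 5 and 1 cells.

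Defining microglial genes differed in how far they came with C1qb. Tmem119 was found in WT cell 17 alone, at 356 counts. P2ry12, the ADP receptor that steers microglial processes, had 10 counts or more in 6 C1qb cells and 1 cell at 0, with a highest count of 277 and a difference of 1.59. Both are genes that retained cells were to lack, and 7 C1qb cells and 1 cell at 0 held a count of either. Cx3cr1, the fractalkine receptor, had medians of 5 in the C1qb cells and 12 in the cells at 0, and its difference was -0.61. Sall1, Fcrls, Mpeg1 and Ptprc reached 10 counts in no cell. The libraries thus hold many but not all of the genes that define microglia, and they are called here by their C1qb.

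**Figure D2:**
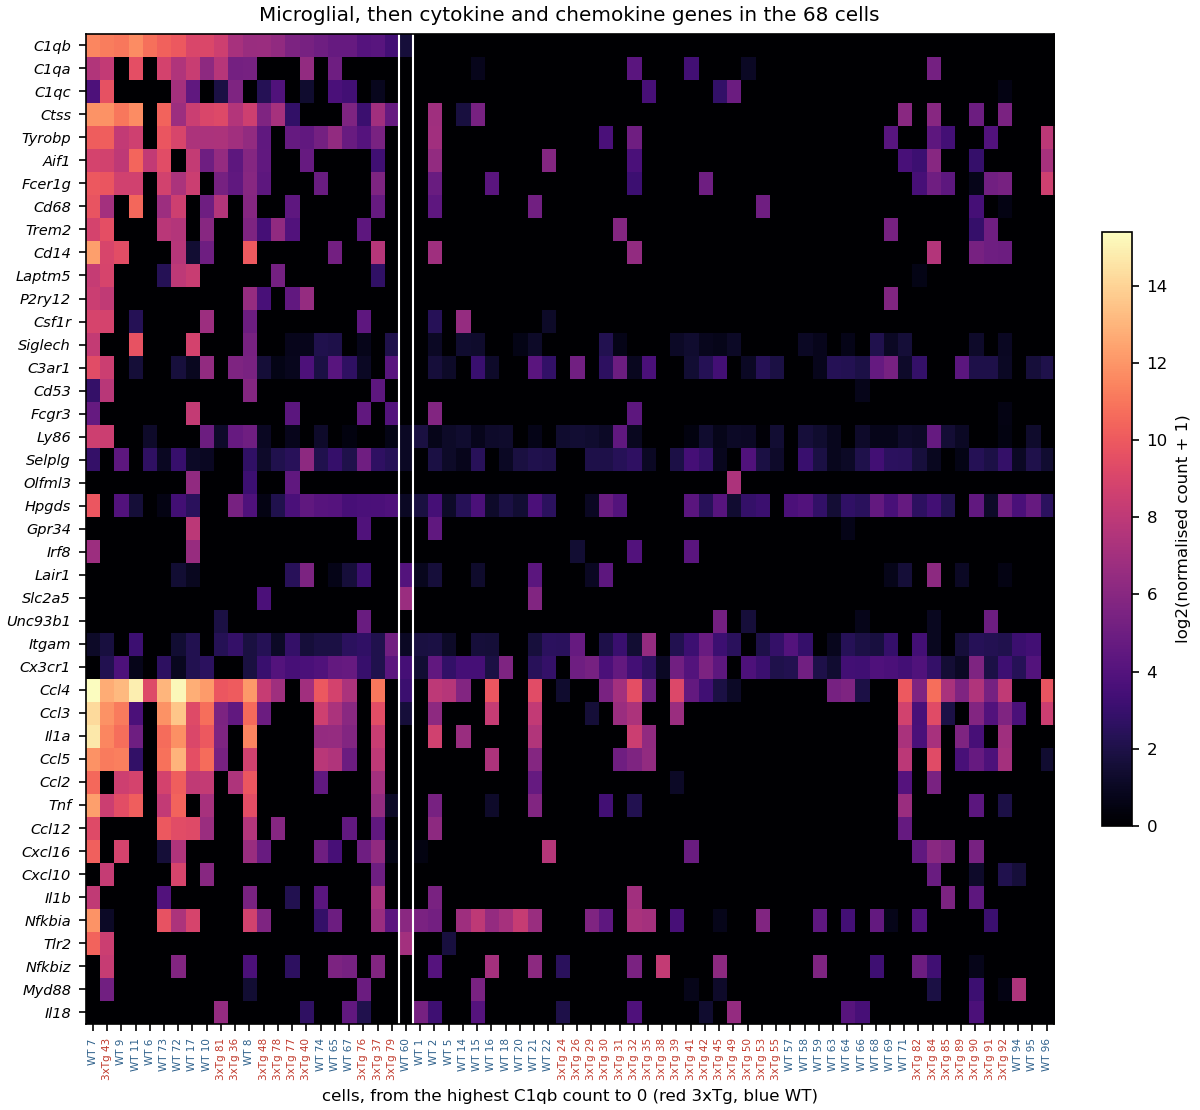
Every gene of the microglia list and then of the cytokine and chemokine list with 10 counts or more in at least 3 of the 68 cells, apart from genes not reported here, as log2(normalised count + 1), with cells ordered from the highest C1qb count to 0 and white lines around WT cell 60. The bright block at the left holds the C1qb cells, and WT cell 2 and 3xTg cell 84 show many of the same genes with a C1qb count of 0.

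Chemokines and cytokines of microglia gave some of the largest differences. Of the 20 listed genes, 17 had a count in at least 3 cells, and 9 were higher and none lower, with a list median of 1.06. The background was 2.79% higher and 5.62% lower. Ccl4, a chemokine that attracts immune cells, had a median of 1140 counts in the C1qb cells and 11 in the cells at 0, with highest counts of 40377 in WT cell 72 and 1873. Its difference was 5.72. It was not particular to the C1qb cells, since 23 of the 45 cells at 0 had 10 counts or more. Ccl3, a related chemokine, differed by 4.39, Ccl5 by 4.11, and Ccl2, which recruits monocytes through Ccr2, by 3.85. Ccl2 followed the split more closely, with 10 counts in 11 C1qb cells and 3 cells at 0.

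Il1a, which encodes interleukin 1 alpha, had a median of 101 counts in the C1qb cells and reached 21188 in WT cell 7, which gave 58.4% of its summed counts. In the cells at 0 its median was 0 and its highest count 588. Tnf had a median of 0 in both sets, with highest counts of 3942 and 152 and 10 counts or more in 9 and 5 cells. Ccl12 reached 10 counts in 9 and 2 cells, Cxcl10, an interferon-induced chemokine, in 4 and 1, and Il1b in 5 and 4. The summed list made 3019 CPM of the median C1qb cell and 135 CPM of the median cell at 0, and 11 C1qb cells lay above every cell at 0. Without WT cells 6 to 11 the C1qb median was 775 CPM and 6 cells lay above, while the list's median difference was 1.17. Microglial and cytokine genes with C1qb together were 8.96% of the counts of WT cell 7, 6.58% of WT cell 72 and 3.98% of 3xTg cell 43, and at most 0.427% of any cell at 0.

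The cytokine and chemokine genes were found mostly in WT C1qb cells. Within WT cells the difference was 8.67 for Ccl4, 7.15 for Il1a, 7.23 for Ccl5 and 6.09 for Ccl2. Within 3xTg cells it was 2.30, 0.74, 0.48 and 1.16. The summed list had a median of 12862 CPM in the 12 WT C1qb cells and 259 CPM in the 10 3xTg C1qb cells, with ranges of 473 to 74560 and 12.4 to 20844 that overlapped. In the cells at 0 the medians were 130 CPM in WT and 135 CPM in 3xTg. The microglia list differed less between genotypes, with medians of 2363 and 444 CPM, and its median difference was 0.98 within WT and 0.76 within 3xTg. In the same fits the median of all genes was -0.22 within WT and 0.12 within 3xTg. With both genotypes together but without WT cells 6 to 11, the differences were 4.49 for Ccl4, 3.15 for Il1a and 2.54 for Ccl2. For these genes no difference within WT alone was computed without those cells. Since no mouse is named for any cell, whether the genotypes differ was not tested.

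**Figure D3:**
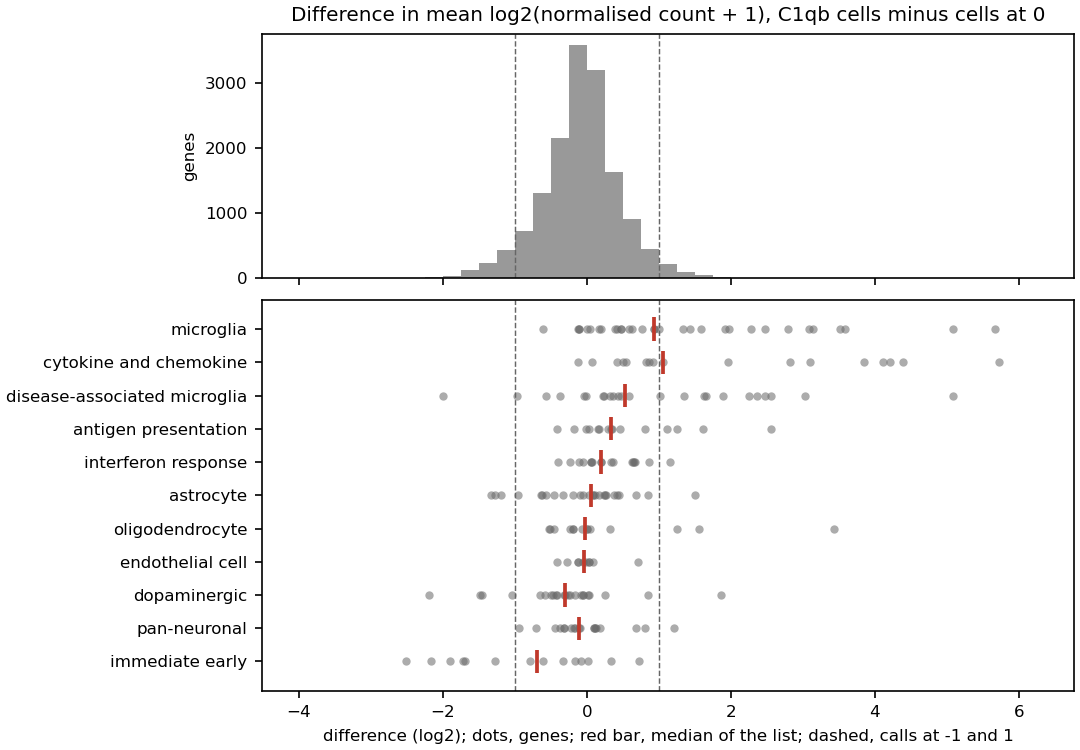
Above, the number of genes at each difference (C1qb cells minus cells at 0, on the log2 scale), and below, the genes of 11 lists as dots with the list's median as a red bar and the calls at -1 and 1 dashed. The microglia and the cytokine and chemokine lists reach above 5, while the astrocyte, oligodendrocyte and endothelial medians lie at 0.05, -0.03 and -0.04.

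Lists of microglial states and of antigen presentation held some higher genes, against a background of 2.79% higher and 5.62% lower. Of 24 measured genes on the list of disease-associated microglia, a state described around amyloid, 11 were higher and 1 lower, with a list median of 0.53. This list shares Trem2 and Tyrobp with the microglia list and B2m with the antigen presentation list. It also holds Fth1, a ferritin gene described below, so these results are not separate. That median was 0.87 within WT, where the summed list had medians of 7266 and 3125 CPM, and 0.55 within 3xTg, with 4027 and 3298 CPM. Ctsz, a lysosomal cathepsin, differed by 3.02, Cd63 by 2.36, Cd52 by 2.25 and Apoe, the lipid carrier, by 1.01, which was -0.046 when cells were split by C1qc. Timp2, an inhibitor of matrix proteases, was lower by the rule at -2.0. Of 15 measured antigen presentation genes 4 were higher and none lower, namely B2m (2.56), Cd74 (1.61), H2-K1 (1.25) and H2-D1 (1.12), the light chain, the invariant chain and heavy chains of MHC molecules. B2m differed by 4.11 within WT and 0.88 within 3xTg, and the antigen presentation median was 0.05 and 0.57. The summed antigen presentation list differed more within WT, with medians of 733 and 341 CPM against 404 and 359 CPM within 3xTg. In WT, 6 of 12 C1qb cells lay above every WT cell at 0. For Cd74, 78.7% of the counts came from 3xTg cell 43. Of 17 interferon response genes only Ifi27l1 was higher (1.15, but -0.50 in cells at or above the median of genes detected), and the list median was 0.20, with 0.54 within WT and -0.15 within 3xTg. The summed interferon list had medians of 836 and 252 CPM in WT, with 7 of 12 C1qb cells above every WT cell at 0, and of 162 and 238 CPM in 3xTg. Besides C1qb, 18 complement genes were measured. C1qa, C1qc and C3ar1, the receptor for C3a, were higher (C3ar1 at 1.01, but -0.10 in labels 57 to 96), and all of them are also on the microglia list. Cfp (properdin) was lower, with a count in 0 of 22 C1qb cells and in 12 of 45 cells at 0.

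Ftl1 and Fth1, the light and heavy chains of the iron store ferritin, were put together after their values were seen. They made 3571 CPM of the median C1qb cell and 1804 CPM of the median cell at 0. Their level reached 61415 CPM in WT cell 72 and 48072 CPM in WT cell 7, against 4773 CPM in the highest cell at 0. Ftl1 differed by 1.98 and Fth1 by 1.65, and 10 C1qb cells lay above every cell at 0. Within WT the medians were 8093 and 1817 CPM and within 3xTg 1878 and 1776 CPM, and without WT cells 6 to 11 the median of the C1qb cells was 2287 CPM.

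Lists of vessel cells, blood cells and most other glia held no or few called genes. No gene of the endothelial (10 measured), mural cell (5), fibroblast (3), oligodendrocyte precursor (7), perivascular macrophage (4), lymphocyte (7), monocyte and granulocyte (2) or ependymal and choroid plexus (4) list was called in either direction. Of all genes 2.79% were called higher and 5.62% lower, so lists this short would hold few calls or none. Several lay near the floor, such as the summed mural (14.2 and 13.3 CPM) and fibroblast lists (0.82 and 1.25 CPM). The absence of calls therefore does not show that these transcripts stay apart from C1qb. The endothelial genes Cldn5, Pecam1, Slco1a4, Ly6c1, Ly6a, Tie1 and Fn1 were at 0 in all 68 cells, as were Pf4, Ms4a7, Cbr2, Folr2 and Cd209f of perivascular macrophages. The summed endothelial list had medians of 5.20 CPM in the C1qb cells and 21.3 CPM in the cells at 0, an order that turned within 3xTg (73.1 and 10.4 CPM) and without WT cells 6 to 11 (41.1 and 21.3 CPM).

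Of 26 measured astrocyte genes 1 was higher and 3 lower, against 2.79% higher and 5.62% lower of all genes. The higher one was Sparcl1, a matricellular protein (1.5, with 2.47 within WT and 0.34 within 3xTg), and the lower ones were Clu (-1.33), Slc39a12 (-1.28) and Glul (-1.20), of which Glul was -2.29 within WT, -0.04 within 3xTg and -0.97 without WT cells 6 to 11, and Aldh1l1 was at 0 in every cell. Of 14 measured oligodendrocyte genes 3 were higher, against 2.79% of all genes, while the list median was -0.03. Among them were Trf, the iron carrier transferrin (3.44), and Mbp, which encodes myelin basic protein (1.55, with 2.63 within WT and 0.26 within 3xTg). Trf reached 10 counts in 13 C1qb cells and 8 cells at 0, with highest counts of 1072 and 635, and it differed by 4.13 within 3xTg and 2.76 within WT. The summed oligodendrocyte list was 566 CPM over the C1qb cells and 222 CPM over the cells at 0. Its medians over cells were 310 and 124 CPM, with 717 and 137 CPM in WT and 164 and 120 CPM in 3xTg, and the part of oligodendrocyte RNA in the other differences was not tested.

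Haemoglobin transcripts marked single libraries. None of the 5 measured genes of the erythrocyte list was called, against 2.79% higher and 5.62% lower of all genes. The list took 16.9% of the counts of WT cell 11, a C1qb cell, and 1.02% of WT cell 96, a cell at 0. WT cell 11 gave 98.9% of the Hba-a1 counts of the C1qb cells. Reads of Hba-a1 and Hba-a2, which are nearly identical, can be split between them.

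**Figure D4:**
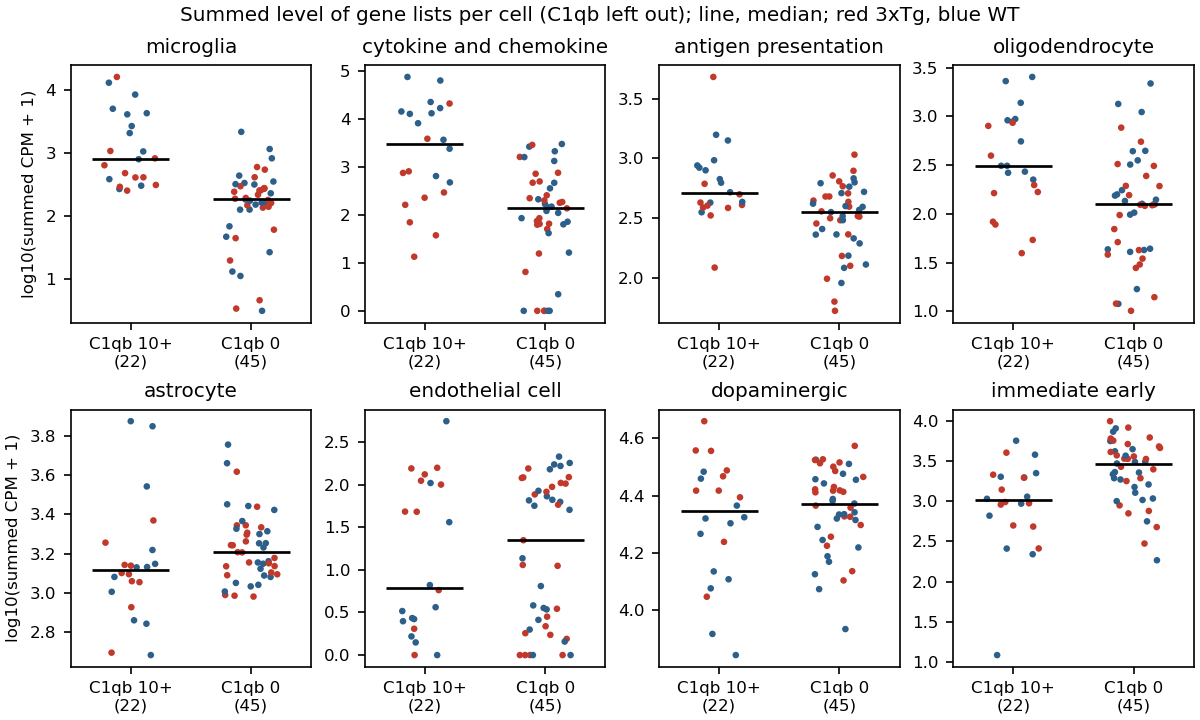
Summed level of 8 gene lists in each of the 22 C1qb cells and the 45 cells at 0, as log10(summed CPM + 1), with a line at the median, 3xTg cells in red and WT cells in blue. The microglia and the cytokine and chemokine panels separate most, with overlap, and the dopaminergic panel does not separate.

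Outside the lists, the 15 named genes with the largest differences were taken among those with 10 counts or more in at least 50% of the C1qb cells. Cd83, a surface protein of activated antigen-presenting cells, differed by 4.08, with 10 counts or more in 17 C1qb cells and 13 cells at 0 and 71.7% of its counts from WT cell 7. Sparc, a collagen-binding matricellular protein, differed by 3.68, with 17 and 15 cells at 10 counts and medians of 64.9 and 0. Bcl2a1d, Bcl2a1a and Bcl2a1b, survival proteins of the Bcl2 family, differed by 3.02, 2.93 and 2.9, but these copies are nearly identical and 80 to 95% of their counts were not whole, so how reads were divided among them is uncertain. Marcksl1 differed by 2.45 and Plek, the protein kinase C substrate pleckstrin, by 2.10. Others of the 15 were genes that many cells use, such as Rplp0 (1.98), a ribosomal protein, and Abce1 (2.10), a ribosome recycling factor.

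Ranked by likeness across all 68 cells, 6 of the 15 genes nearest to C1qb were on the microglia list and 3 on the cytokine and chemokine list. The Spearman rho with C1qb was 0.73 for Tyrobp, 0.72 for Ctss, 0.60 for Ccl4, 0.59 for Gngt2, 0.58 for Aif1, 0.58 for C1qa, 0.56 for Ccl2, 0.55 for Sparc and 0.53 for Cd83. C1qc, Fam107b, Fth1, Ccl3, Cd68 and Bcl2a1a completed the 15 nearest, at 0.49 to 0.48. These values describe 68 libraries in which 45 share a C1qb count of 0, and the points also share library depth and genes detected. Fam107b had 10 counts or more in 7 C1qb cells and in none of the cells at 0, where its highest count was 1.

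Genes of the microglia list were also found in cells with a C1qb count of 0. Of the 45 cells at 0, 14 had 10 counts or more of Ctss, Tyrobp or Aif1, and 2 had all of them, against 22 and 12 of the 22 C1qb cells. WT cell 2 held 11 genes of the microglia list and 9 of the cytokine and chemokine list at 10 counts, at 2156 and 2109 CPM, and 3xTg cell 84 held 10 and 7. In turn, WT cell 6, with 1326 counts of C1qb, held only 2 other microglial genes and 1 cytokine gene at 10 counts. 3xTg cell 77 held 9 microglial genes and none of the cytokine and chemokine list.

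Transcripts of dopamine synthesis and transport were at like levels in both sets. Retained cells had to hold Th, Slc6a3 and Slc18a2, so cells without them were absent from both sets beforehand. Th, the rate-limiting enzyme of dopamine synthesis, had 1579 counts in the lowest C1qb cell, 7784 at the median and 21378 in the highest, against 844, 7080 and 16622 in the cells at 0, and its difference was 0.03. Slc6a3, the dopamine transporter, had medians of 4074 and 4178 and a difference of 0.01. Slc18a2, the vesicular monoamine transporter, had medians of 2422 and 2835 and a difference of -0.47. Together these genes made 13968 CPM of the median C1qb cell and 14221 CPM of the median cell at 0, with ranges of 4702 to 30092 and 3343 to 25144. Among the C1qb cells the median was 11108 CPM in those with 500 C1qb counts or more and 17135 CPM in the others. That division also sets mostly WT against mostly 3xTg cells.

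The whole dopaminergic list made 22128 CPM at the median of the C1qb cells (6948 to 45736) and 23563 CPM at that of the cells at 0 (8568 to 37492). Within 3xTg the medians were 27742 and 26131 CPM, and within WT 19273 and 21594 CPM. The difference of the medians was -1435 CPM, and -10191 CPM when cells were split by C1qc, which left 9 positive cells. Leaving out 1 C1qb cell at a time gave -2472 to -399 CPM. Of its 23 measured genes 1 was higher, 4 lower and 18 between, against 2.79% higher and 5.62% lower of all genes. Aldh1a1, the aldehyde dehydrogenase of a subset of DA neurons, was higher at 1.86, with medians of 844 and 385 counts, but its sign turned when the cells were split by C1qa (-3.13) or C1qc (-0.72). Ret, the receptor of glial cell line derived factors, was lower at -2.19, with a count of 10 or more in 15 of 22 and 43 of 45 cells. This came from WT cells (-4.10), and the difference within 3xTg was 0.18. The transcription factors Foxa1 (-1.48), Lmx1a (-1.46) and En1 (-1.04) were lower, but En1 was 0.25 within 3xTg and 0.022 in cells at or above the median of genes detected. The list median was -0.31 over all cells, -0.52 within WT, 0.11 within 3xTg and -0.15 without WT cells 6 to 11.

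Of 19 measured pan-neuronal genes only Nefl, the light neurofilament, was called (1.21), a sign that turned in the splits by C1qa (-0.29) and C1qc (-0.39) and in labels 57 to 96 (-0.53), and the list median was -0.12. Snap25, a protein of vesicle fusion, differed by -0.23, and Syt1, the calcium sensor of release, by -0.12. Mtap2 (Map2) was listed at 0 in every cell. None of the 7 measured GABA and glutamate neuron genes was called. The background for these neuronal lists was 2.79% higher and 5.62% lower. Of 8 genes by which neurons signal to microglia, Cd200, a restraining ligand, was lower (-1.05), and Cx3cl1, which encodes fractalkine, had medians of 58.2 and 141 counts and a difference of -0.50. Malat1, a nuclear long noncoding RNA, differed by -0.28.

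Part of the immediate early genes was lower in the C1qb cells. These genes are transcribed within minutes of neuronal activity or stress, and 6 of the 14 listed were lower, 8 between and none higher, against a background of 5.62% lower. Fos had 0 counts in the lowest C1qb cell, 495 at the median and 3664 in the highest, against 38, 1496 and 6906 in the cells at 0, and its difference was -1.91. Fosb (-2.51), Jun (-2.16), Egr1 (-1.72), Dusp1 (-1.69) and Junb (-1.27) were also lower. The summed list made 1028 CPM of the median C1qb cell and 2960 CPM of the median cell at 0, with overlapping ranges of 11.2 to 5695 and 184 to 9967. The list median was -0.70 over all cells, -0.37 within 3xTg and -0.81 within WT. When cells were split by C1qa the list median was 0.11 and Fos differed by 0.31, and when they were split by C1qc these were -0.18 and -2.36. The sign of Jun (0.065) and Junb (0.15) also turned in the split by C1qa, and that of Junb (0.32) in the split by C1qc. The lower genes outside the lists included Tmeff2, a transmembrane protein with follistatin domains (-2.83), Glrx3, a glutaredoxin (-2.75), Dpp6, an auxiliary subunit of A-type potassium channels (-2.53), and Btg2, an antiproliferative early response gene (-2.41).

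Total counts and genes detected overlapped almost completely between the sets. Total counts were 669107 to 1416153 (median 1011152) in the C1qb cells and 492505 to 1678624 (median 1060912) in the cells at 0. The medians were 1080940 and 1194457 within 3xTg and, in the opposite order, 1011152 and 969738 within WT. The number of genes with a count of at least 1 was 3770 to 10426 (median 7562) in the C1qb cells and 3695 to 10305 (median 8018) in the cells at 0. With every cell thinned to 700448 counts, which left out 3 C1qb cells and 4 cells at 0, the medians were 7374 and 7795. Before thinning, the order of the medians turned without WT cells 6 to 11 (8393.5 against 8018) and within 3xTg (8911.5 against 8478), and within WT they were 5589 and 7944.5.

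Within the C1qb cells, those with the most C1qb had the fewest genes. The 9 cells with 500 or more C1qb counts held 3770 to 7476 genes (median 4870) and the 13 cells with fewer held 7011 to 10426 (median 8968). After thinning, the medians were 4800 in 7 cells and 8850.5 in 12. The total counts of these subsets overlapped, at 690895 to 1226641 and 669107 to 1416153. The 9 cells also had more of the oligodendrocyte list, at a median of 912 CPM against 196 CPM, and of ferritin, at 16125 against 2026 CPM. The dopaminergic list made 18453 CPM at their median and 26140 CPM at that of the 13, and the immediate early list 1978 and 935 CPM, so among C1qb cells the early genes were not lower at high C1qb. This division at 500 counts was chosen after the values were seen and is a description. It sets 8 WT cells and 1 3xTg cell, 5 of them WT cells labelled 6 to 11, against 4 WT and 9 3xTg cells. Within WT the 8 cells held 3770 to 7476 genes and the other 4 held 8276 to 9459, and 3xTg cell 43 held 4870 against 7011 to 10426 in the other 3xTg C1qb cells, so in genes detected the sets did not overlap within either genotype. For the list levels, C1qb level and genotype were not separated. Low numbers of genes were not particular to high C1qb, since the cells at 0 reached down to 3695.

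**Figure D5:**
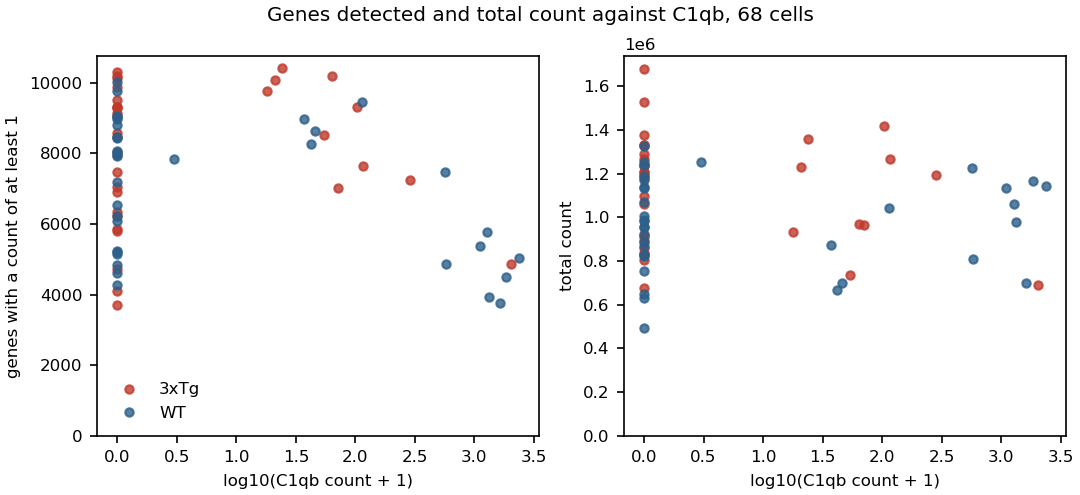
Number of genes with a count of at least 1 (left) and total count (right) against log10(C1qb count + 1) for all 68 cells, 3xTg in red and WT in blue. The cells with 500 or more C1qb counts hold 3770 to 7476 genes, the other C1qb cells 7011 to 10426, and the cells at 0 hold 3695 to 10305.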

How the data were processed

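The authors deposited 1 table of estimated counts for 36172 genes and 68 cells, of which 17940 genes had a count. These are the columns named raw, and 55.3% of their nonzero values are not whole (tolerance 0.001). Columns of DESeq2-normalised values beside them were not used, and the submitters' processing notes name DESeq2 and mm10. Per the study's methods, libraries were amplified over 28 PCR cycles and sequenced, and Strand NGS 4.0 aligned the reads to RefSeq transcripts of mm10 at a minimum identity of 90% and dropped duplicates. There are no molecular identifiers. Removing duplicates can cap the counts of short or abundant transcripts, and reads of near-identical genes may be divided.

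Here counts were divided by size factors of the median-of-ratios kind, taken over the 787 genes that no cell lacked, and written as log2(normalised count + 1). Genes with a count in at least 3 cells were compared. No difference between sets was tested, because the labels tie no cell to a mouse. Total counts per cell were 492505 to 1678624, and no 2 cells were copies (highest Pearson r between cells 0.742). The members, the 23 gene lists and the comparisons were chosen with earlier results of these data known. Of 375 listed genes 373 were found, 7 of them by Entrez number. Named were the C1q genes, list genes with 10 counts or more in at least 3 cells, list genes at 0 in every cell, the 15 most higher and 10 most lower genes outside the lists and the 15 nearest to C1qb by Spearman rho. Genes outside the lists had to hold 10 counts in 50% or more of the cells of the higher set and to differ in the same direction by summed CPM, and genes ranked by rho 10 counts in at least 5 cells. Genes below these limits that the text names were chosen after their values were seen. A few items, some of them list genes that stay in the counts and sums, are not reported here. Alternatives were CPM, TMM factors (edgeR 4.0.16, counts rounded), thinning to 700448 counts, summed CPM, pseudocounts of 0.1 and 10, C1qb minimums of 1 and 50, splits by C1qa or C1qc, single genotypes, cells by genes detected or label, gene filters and each C1qb cell left out. Differences without WT cells 6 to 11 set the remaining C1qb cells of both genotypes against all 45 cells at 0. The script for list differences was tested on simulated data. Python 3.11.15, numpy 2.4.6, pandas 2.3.3, scipy 1.17.1 and R 4.3.3 were used, with promoter sequences from RefSeq (GRCm38.p6).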

Additional observations from a re-analysis of the deposited data

Results flagged for a closer look

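Each measure was checked for a cell far from the rest of the 10 3xTg C1qb cells, by the gap to its nearest neighbour as a share of their range set beside Dixon's critical value at the 95% level. Chance passes that value in about 1 of 20 groups of independent samples. These cells were chosen by C1qb, may share mice, and the lists share genes and go with C1qb, so the values are a description and no test. Of 26 measures 10 passed, 8 of them through 3xTg cell 43. In that cell the C1qb count was 2048, the microglia list made 15970 CPM, the cytokine and chemokine list 20844 CPM, the disease-associated microglia list 22523 CPM and the complement list 2295 CPM. The antigen presentation list made 4832 CPM there, the interferon response list 956 CPM and the list of microglial receptors for neuronal signals 965 CPM. The other measures that passed were the erythrocyte list in 3xTg cell 78 (729 CPM) and the immediate early list in 3xTg cell 79 (4042 CPM). The check was made only in sets of 10 or fewer, so the 12 WT C1qb cells, which hold most of the high C1qb counts, were not checked.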

How the results depend on the processing

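Leaving out each C1qb cell in turn gave medians of 0.71 to 0.98 for the microglia list, 0.88 to 1.12 for cytokines and chemokines, -0.82 to -0.68 for immediate early genes, -0.40 to -0.14 for dopaminergic genes, -0.12 to 0.07 for astrocyte genes and -0.23 to 0.016 for pan-neuronal genes, so the sign of the last 2 rests on single cells. No paired analysis was possible because the labels share no replicate number between genotypes and no difference between the sets was tested. The counts of genes called depended strongly on the settings, and the background shares hold only for the main one. Higher and lower calls by difference were 1940 and 2491 from summed CPM (microglia list median 3.94), 1141 and 1962 with a pseudocount of 0.1, 69 and 88 with 10, 2216 and 550 in 3xTg alone, 772 and 2461 in the split by C1qc, 1134 and 1437 in labels 1 to 55, 829 and 1826 in labels 57 to 96, and 922 and 499 without WT cells 6 to 11, an alternative chosen after seeing the data. Lower calls were 559 after thinning, 1869 with a C1qb minimum of 50 and 2747 in WT alone, and higher calls were 1088 in cells at or above the median of genes detected. By share of cells, higher and lower calls were 83 and 173 in the split by C1qa, 94 and 766 by C1qc, 602 and 114 in 3xTg alone, 98 and 803 in WT alone, 421 and 238 in cells at or above the median of genes detected, 181 and 309 in labels 1 to 55, 220 and 483 in labels 57 to 96, and 143 and 22 without WT cells 6 to 11. Higher calls by share were 68 after thinning, and lower ones 495 with a minimum of 50. Splitting by C1qc left 9 positive cells, whose median dopaminergic level lay -10191 CPM from that of the cells at 0. Of 1342 values for 84 named genes 21 had the opposite sign, in 16 genes. In the split by C1qa the immediate early median was 0.11, Jun 0.065, Junb 0.15, Fos 0.31, Nell1 -0.056, Nefl -0.29 and Aldh1a1 -3.13. In the split by C1qc Junb was 0.32, Nefl -0.39, Aldh1a1 -0.72 and Apoe -0.046. In 3xTg alone En1 was 0.25, Ret 0.18, Ntf3 0.028, Siglech -0.0025 and Lilrb4 -0.57. In cells at or above the median of genes detected En1 was 0.022, Ifi27l1 -0.50 and Rnaset2a -0.24. In labels 57 to 96 C3ar1 was -0.10, Ccl6 -0.13 and Nefl -0.53. The cause of these changes was not tested, and the splits also differ in their cells.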
